A study of Nematostella vectensis with 123 samples.

Results

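The 35 transcript models described here had medians of at most 1 CPM in every 6 h bin of Nematostella vectensis embryos before 36 h. CPM is a model's share of the embryo's gene counts, scaled to 1000000. In a bin between 36 and 48 h these models reached a median of at least 5 CPM. They were 35 of the 40499 models measured. The rule took models whose median level was at or below 1 CPM in each of the 6 h bins of label time before 36 h. Of 17180 such models it kept those whose median in the 36 to 42 h bin or the 42 to 48 h bin was 5 CPM or more, which were 0.204% of them. The models were thus chosen by their median CPM in embryos 1 to 73, so all levels of the models in those embryos describe the choice and carry no test.

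Nematostella vectensis, the starlet sea anemone, is a cnidarian. After cleavage, blastula formation and gastrulation its embryo becomes a planula, a ciliated swimming larva that later settles and grows tentacles as a polyp. The planula stage is known for the differentiation of stinging cells, neurons and gland cells and for the sensory organ at its swimming end. The files give model identifiers only, and 0 of the 35 models matched the 38762 genes of the RefSeq table (assembly jaNemVect1.1), so no gene name, role, position or sequence can be attached to any of them.

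RNA was measured in 123 single whole embryos, picked at the 4-cell stage and kept at 20 °C. The CEL-Seq method used reads the 3' end of polyadenylated RNA. Label times run from -20 to 4320 without a stated unit and were read as minutes (0 to 72 h). Within a number block each embryo is alone at its time, and strain and clutch are not given. Embryos 1 to 73 carry the times up to 47.3 h and embryos 74 to 123 those from 39.3 h on, so after 48 h age and number block cannot be told apart. Embryo 50 is labelled -20, the earliest time, while embryos 49 and 51 are labelled 32 and 32.7 h, and the rule used the label. Without embryo 50 the rule took 33 models.

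Of the embryos, 2 had fewer than 50000 gene counts (10 and 111) and were left out, and the rule also leaves out embryo 27. The 71 embryos of the rule held 206062 to 2646585 gene counts, with a median of 862248. The 49 used from embryos 74 to 123 held 58680 to 2113426, with a median of 827571. At the median depth of the rule's embryos 5 CPM is 4.31 counts, while an embryo without a count could still hold 3.48 CPM (3 counts). Single values of the weaker models therefore rest on few counts, and these limits cover counting error only. In whole embryos, fewer cells of a type and less RNA per cell cannot be told apart.

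The summed level of the 35 models was low until 24 h and higher in each later bin up to 48 h. Their summed level per embryo had a median of 22.4 CPM at 0 to 6 h (lowest 7.94, highest 74.6, n = 10 embryos). It was 17.7 CPM at 6 to 12 h (n = 9), 16.3 at 12 to 18 h (n = 8) and 20.4 at 18 to 24 h (n = 8). It was 38.6 CPM at 24 to 30 h (18.4 to 124, n = 9) and 70.0 CPM at 30 to 36 h (40.7 to 145, n = 9), so the sum had moved up before the limit set by the rule. In the bins that chose the models it was 173 CPM at 36 to 42 h (92.7 to 690, n = 9) and 361 CPM at 42 to 48 h (161 to 644, n = 9). Embryo 64 (41.3 h) held the 690 CPM, and the next highest embryo of its bin held 228 CPM.

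**Figure D1:**
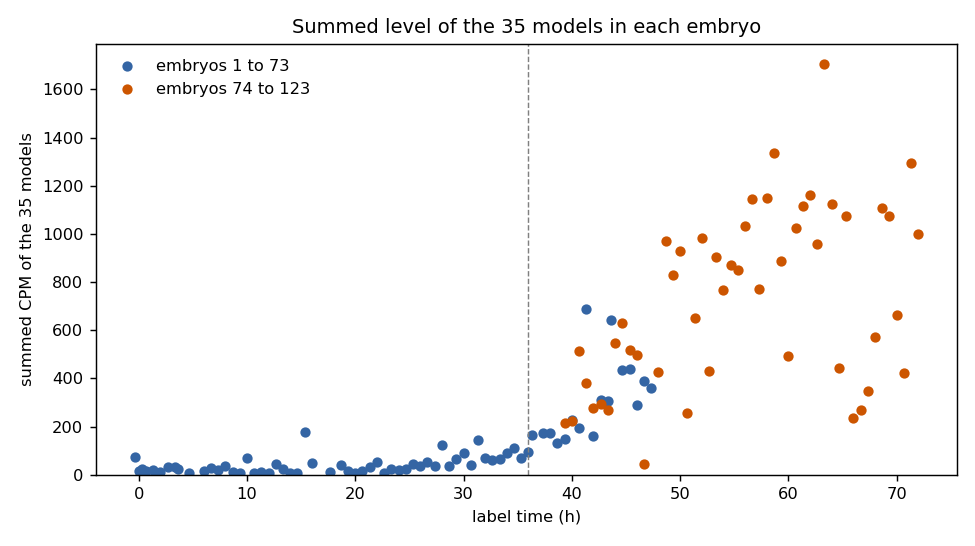
Summed CPM of the 35 models (vertical axis) in each embryo against label time in hours; each point is 1 embryo, colours give the number block and the dashed line marks 36 h. The 36 to 48 h embryos of the first block lie between 92.7 and 690 CPM, and embryos 74 to 123 reach 1704 CPM.

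The models were not strictly absent before 36 h. None of the 35 was without counts in the 53 embryos younger than 36 h: a model had counts in 2 to 26 of them (median 12). Pooled over these embryos, the level of a model ran from 0.0380 to 4.78 CPM with a median of 0.761, and 12 models were above 1 CPM. Pooled over 0 to 12 h the median over models was 0.321 CPM, over 12 to 24 h 0.426 CPM and over 24 to 36 h 1.22 CPM. The pooled level at 24 to 36 h was above that at 0 to 12 h in 29 of 35 models. This was not counted over all models, so whether it is particular to the 35 was not tested. A median at or below 1 CPM could include a bin in which most embryos had counts, as for Nv.T1.63571.4053 with counts in 7 of 10 embryos at 0 to 6 h, and "first present" holds for the median and not for single embryos.

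Most models passed the limit by little. The values that chose them had a median of 6.41 CPM, with 30 models between 5 and 10 CPM and 5 models at 10 CPM or more. Nv.T1.25337.1 was the last inside at 5.39 CPM, and Nv.T1.63571.4011 the nearest outside at 4.81 CPM. In the 18 embryos of 36 to 48 h a model had counts in 9 to 16 (median 13). The embryo with most of a model held 13.7 to 49.3% of its summed CPM there, and embryo 64 was that embryo for 5 models. Only 3 models had a median of 5 CPM or more in both bins.

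The 2 models with the highest values belong to the same identifier stem, the part of the name that models share. Nv.T1.63571.3979 had a median of 0 CPM at 36 to 42 h (lowest 0, highest 58.3 in embryo 64) and of 30.3 CPM at 42 to 48 h (0 to 84.6). Nv.T1.63571.4053 had a median of 2.16 CPM (0 to 62.6) and then of 27.8 CPM (0 to 81.2). Both were seen in some embryos and not in others of the same age: Nv.T1.63571.3979 had counts in 3 of 9 and then 6 of 9 embryos.

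These 2 models were mostly high in the same embryos. Before 36 h, 10 of 53 embryos held both at 5 CPM or more and none held only 1 of them at that level. The earliest by label was embryo 50, with 28.5 and 29.5 CPM, and the highest was embryo 48 (31.3 h), with 56.6 and 55.4 CPM. At 36 to 48 h both had counts in 9 of 18 embryos and neither in 6. In the 37 embryos of 48 to 72 h both had counts in 35 and neither in 2, and their counts were 4807 and 5003, a ratio of 0.961. The ratio was 0.916 before 36 h and 0.935 at 36 to 48 h. How reads shared by models of a stem were counted is not given, so the pair may not be independent measurements.

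That stem, the largest in the files, gave 6 of the 35 models. It covers 3153 of the 40499 models and a median of 16.5% of gene counts per embryo, and 1289 of its models were at or below 1 CPM in every bin before 36 h. Each of the 6 therefore has partner models of the same stem at 5 CPM or more before 36 h. Nv.T1.63571.65 and Nv.T1.63571.67, whose values were chosen for description after they were seen, were not always found together. Before 36 h both had counts in 5 of 53 embryos, only Nv.T1.63571.65 in 3 and only Nv.T1.63571.67 in 8. At 36 to 48 h both had counts in 11 of 18, and at 48 to 72 h in 28 of 37 with neither in 6. Whether a stem stands for a locus is not given.

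Of the other 29 models, 1 had another model of its stem, Nv.T1.9596.2. In all, 7 of 35 members (20%) had an earlier partner at 5 CPM or more, against 13.3% of all models at or below 1 CPM before 36 h.

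Nv.T1.9596.1, the partner of this late model, was measured throughout, with a median of 7.78 CPM at 0 to 6 h (3.38 to 42.4, n = 10), 29.2 CPM at 30 to 36 h (24.6 to 50.7, n = 9) and 47.3 CPM at 42 to 48 h (30.3 to 73.9, n = 9). Nv.T1.9596.2 had 0 counts in all 27 embryos younger than 18 h that entered the rule, and 12 counts in the 26 embryos from 18 to 36 h. It reached 178 CPM in embryo 64, while the next embryo of the 36 to 42 h bin was at 6.71 CPM. At 42 to 48 h its median was 8.83 CPM (0 to 152). Pooled over the embryos of a bin, it held 0.673% of the counts of both models at 18 to 24 h and 1.93% at 30 to 36 h. The share was 44.0% at 36 to 42 h and 42.2% at 42 to 48 h. By embryo, Nv.T1.9596.2 was above its partner in only 2 of 9 and 3 of 9 of these, so the pooled shares rest on few embryos.

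In embryos 74 to 123 the late model was the higher of the pair by median from 42 h on. Nv.T1.9596.2 had a median of 50.8 CPM at 42 to 48 h (0 to 130, n = 8), beside 44.1 CPM of its partner. It had a median of 57.0 CPM at 48 to 54 h, 110 CPM at 54 to 60 h (16.7 to 324) and 174 CPM at 60 to 66 h (0 to 340, n = 9 each). Nv.T1.9596.1 was at 45.4, 46.2 and 37.4 CPM in the same bins. The later model was above its partner in 8 of 9 embryos at 60 to 66 h and in 5 of 10 at 66 to 72 h, where its median was 39.9 CPM. These values were picked after they were seen.

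**Figure D2:**
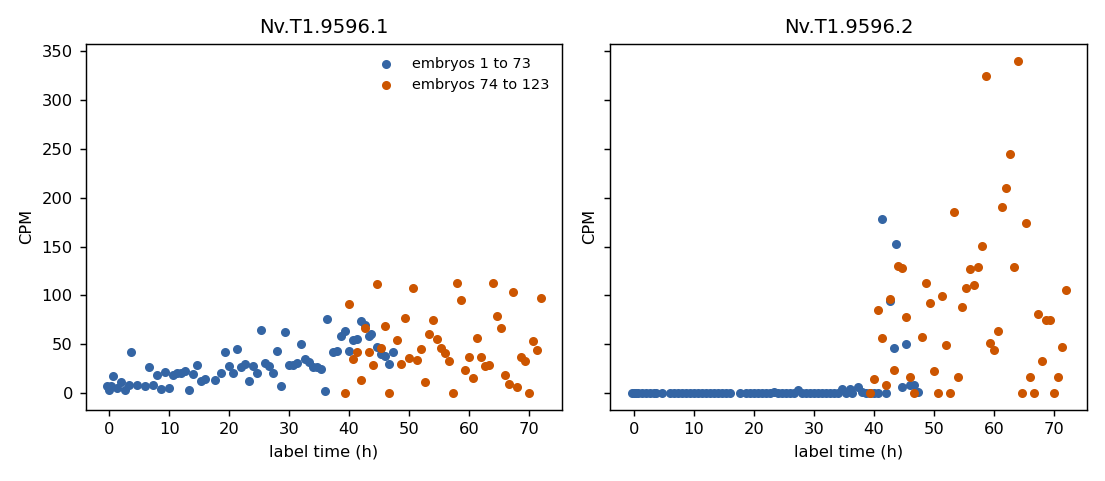
CPM of Nv.T1.9596.1 and Nv.T1.9596.2 (vertical axes) in each embryo against label time in hours; points are embryos and colours the number blocks. The left model lies at a median of 29.2 CPM at 30 to 36 h, whereas the right model has a median of 0 CPM in each bin up to 42 h of embryos 1 to 73, and in embryos 74 to 123 of 35.3 CPM at 39 to 42 h and 174 CPM at 60 to 66 h.

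The models differed in when they were highest within 36 to 48 h. In 23 of 35 the 42 to 48 h bin had the higher median, and 12 of these had a median of 0 CPM at 36 to 42 h. In the other 12 models the 36 to 42 h bin was higher. Of all models with a median of at least 5 CPM in either bin, 59.9% were higher at 42 to 48 h. The leading models that were highest at 36 to 42 h were Nv.T1.13790.1, at 12.2 CPM (0 to 54.0) and then 8.22 CPM (0 to 66.9), and Nv.T1.74153.1, at 11.9 CPM (0 to 24.4) and then 8.22 CPM (0 to 19.1). Both were named after their values were seen. Their ranges overlapped between the bins.

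In each bin from 48 to 66 h most of the 23 models had a median above 0 CPM and most of the 12 had a median of 0 CPM. At 66 to 72 h the median was 0 CPM in 7 of the 23 and in 6 of the 12. The split uses values of the rule, and shares over all models were not counted for single bins.

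**Figure D3:**
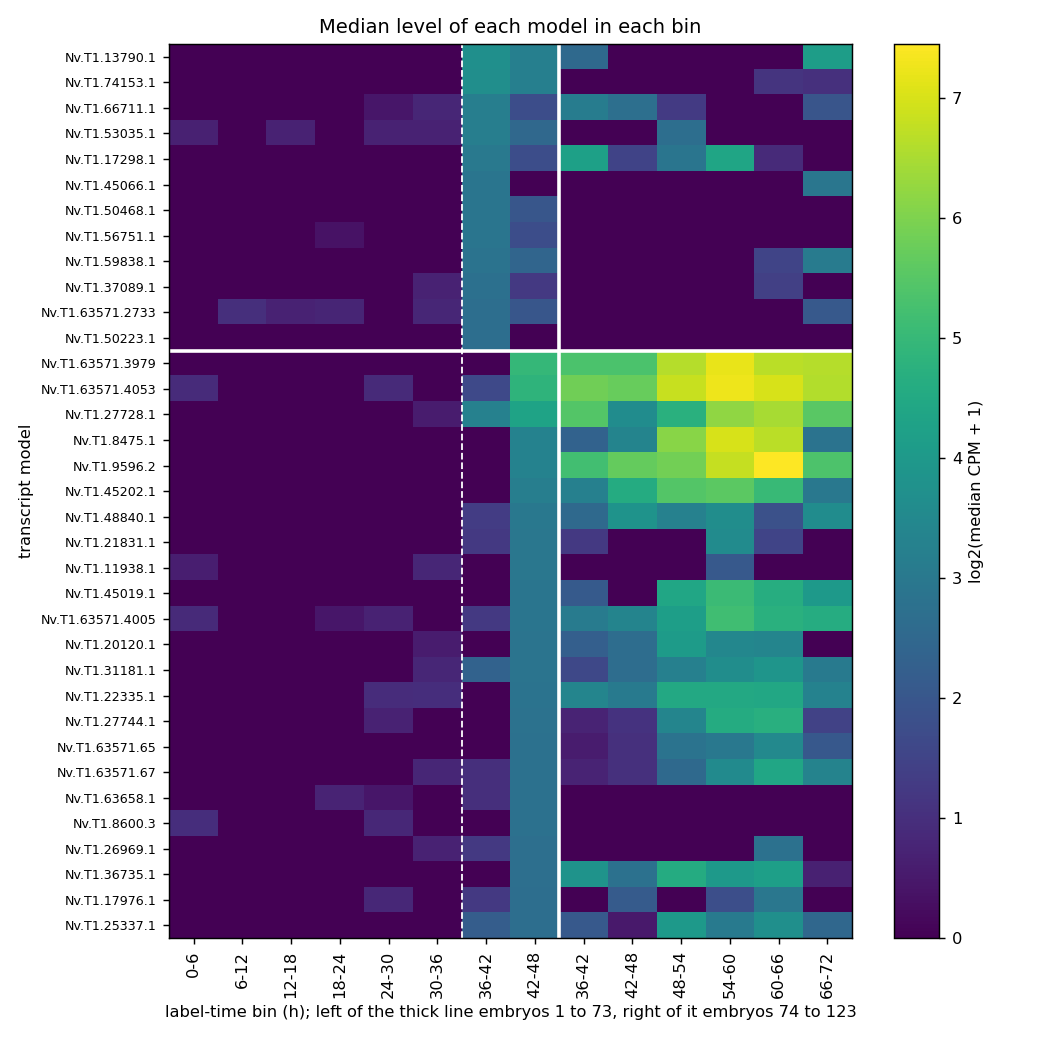
Median level of each of the 35 models (rows) in each 6 h bin of label time (columns), as log2(median CPM + 1); the dashed line marks 36 h, the thick vertical line separates embryos 1 to 73 from embryos 74 to 123, and the thick horizontal line separates the 12 models highest at 36 to 42 h (top) from the 23 highest at 42 to 48 h. At 54 to 60 h 18 of the lower 23 and 1 of the upper 12 had a median of 5 CPM or more, and at 66 to 72 h 12 and 3. Shares over all models were not counted for these bins.

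Embryos 74 to 123 did not enter the rule, and most of the models were present in them. A median of 5 CPM or more in at least 1 of their 6 h bins was found for 26 of 35 models (74.3%). The same was true of 1.23% of the 17180 models at or below 1 CPM before 36 h and of 42.0% of all models. Of the 288 models that missed the rule with 2 to 5 CPM at 36 to 48 h, 62 (21.5%) reached it. The rule shifted to 24 to 36 h took 74 models, and 55 of them (74.3%) reached it.

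At the ages that both blocks share the count was lower. At 39 to 48 h 14 of 35 models (40%) had a median of 5 CPM or more in embryos 74 to 123, against 0.413% of the models at or below 1 CPM before 36 h and 37.9% of all models. At 48 to 60 h there were 20 models (57.1%), against 0.797% and 37.7%, and at 60 to 72 h 22 models (62.9%), against 0.943% and 36.9%. Of the models from the shifted rule 40 of 74 (54.1%) reached it at 39 to 48 h. In 5 of 35 models (14.3%) the median was 0 CPM in every bin of embryos 74 to 123. This was so for 94.1% of the models at or below 1 CPM before 36 h and 47% of all models.

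Presence in embryos 74 to 123 was also counted separately for the models highest at 42 to 48 h and at 36 to 42 h. Of the 23 highest at 42 to 48 h, 20 reached 5 CPM in a later-block bin, 12 of them already at 39 to 48 h. Of the 12 highest at 36 to 42 h, 6 did, 2 of them at 39 to 48 h, and 9 had medians of 0 CPM there. The split uses values of the rule, and the difference between the parts was not tested.

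By bin medians the 23 models made up most of the sum from 42 h on, though not in every embryo. Their summed level per embryo had a median of 279 CPM at 42 to 48 h in the first block (62.4 to 588, n = 9). In embryos 74 to 123 it was 370 CPM at 42 to 48 h (19.4 to 619, n = 8), 818 CPM at 48 to 54 h (136 to 956, n = 9) and 860 CPM at 54 to 60 h (630 to 1329, n = 9). It was 1022 CPM at 60 to 66 h (348 to 1661, n = 9) and 416 CPM at 66 to 72 h (144 to 1225, n = 10). The 12 models had 113 CPM at 36 to 42 h (19.2 to 135, n = 9) in the first block, and 25.0 CPM at 60 to 66 h (0 to 93.9) and 83.4 CPM at 66 to 72 h (0 to 273) in the later block. Neighbouring bins overlapped in both parts.

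**Figure D4:**
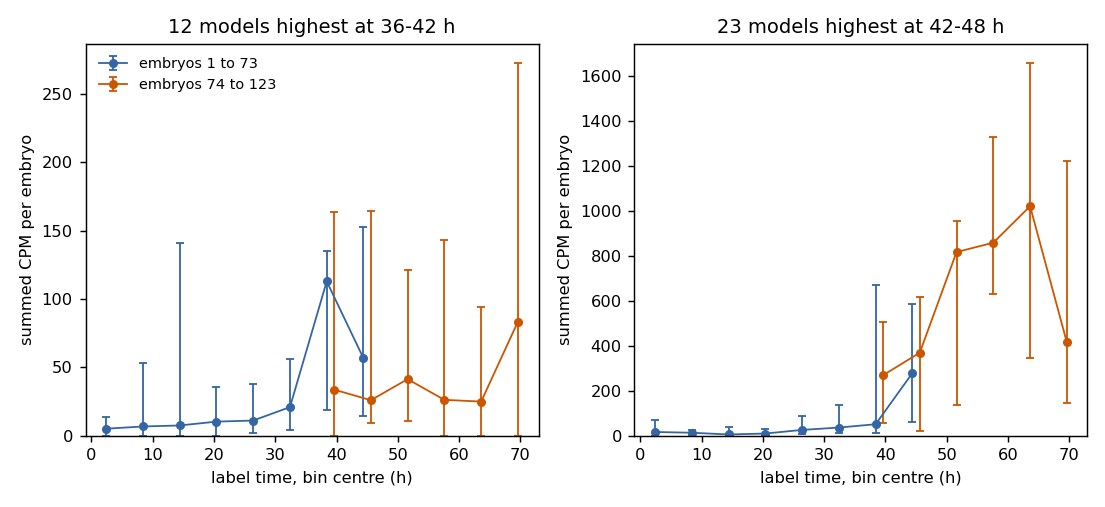
Summed CPM per embryo (vertical axes) of the 12 models highest at 36 to 42 h and of the 23 highest at 42 to 48 h, against the centre of each 6 h bin of label time; points are medians over embryos, bars run from the lowest to the highest embryo and colours give the number block. The 23 models reach a median of 1022 CPM at 60 to 66 h, and the 12 stay at or below 113 CPM.

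The whole sum at 39 to 42 h in embryos 74 to 123 was 215, 222, 516 and 380 CPM in embryos 123, 122, 121 and 120. It had medians of 394 CPM at 42 to 48 h (46.7 to 629, n = 8), 1073 CPM at 60 to 66 h (442 to 1704, n = 9) and 618 CPM at 66 to 72 h (234 to 1295, n = 10). Nv.T1.63571.3979 was at 29.7, 0, 77.1 and 49.3 CPM in the 4 embryos of 39 to 42 h (embryos 123, 122, 121 and 120). Its median was 39.7 CPM at 42 to 48 h (0 to 111, n = 8), 146 CPM at 54 to 60 h (28.6 to 226, n = 9) and 97.8 CPM at 66 to 72 h (0 to 269, n = 10). All embryos of 54 to 66 h held it, whereas 1 embryo was at 0 in each bin from 39 to 54 h and in the last. These embryos (122, 112, 106 and 82) held 207532, 257096, 213996 and 104329 gene counts, and none of the 27 embryos of 48 to 72 h with at least 500000 was at 0. Nv.T1.27728.1, the third by rule value and named after it was seen, had a median of 19.1 CPM at 42 to 48 h in the first block (5.39 to 59.3, n = 9). It had medians of 11.2 CPM (0 to 83.7, n = 8) at the same ages in the later block, and of 87.6 CPM (0 to 175, n = 9) at 60 to 66 h. Nv.T1.13790.1 was at a median of 0 CPM in each bin from 42 to 66 h of the later block, with highest values of 11.3 to 20.7 CPM, and at 16.8 CPM (0 to 64.1, n = 10) at 66 to 72 h.

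**Figure D5:**
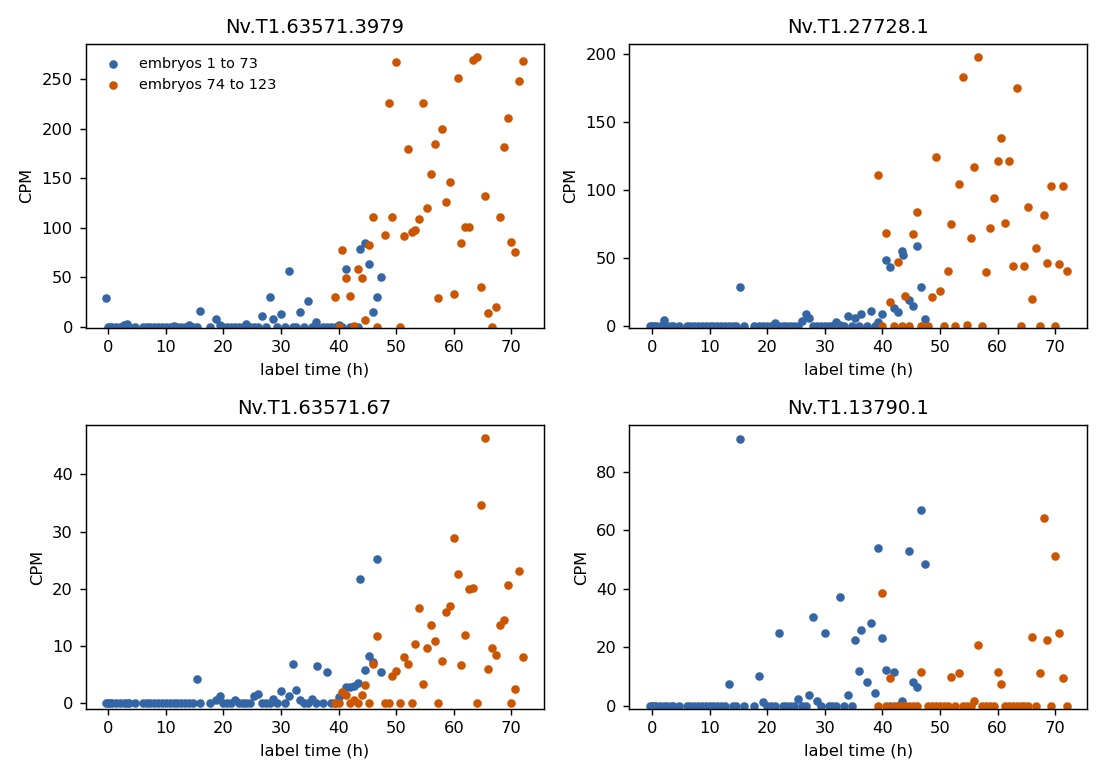
CPM of 4 of the 35 models (vertical axes, each with its own scale) in each embryo against label time in hours; points are embryos and colours the number blocks. In the 27 embryos of 48 to 72 h with at least 500000 gene counts Nv.T1.63571.3979 has no zero (lowest 14.2 CPM), and Nv.T1.13790.1 has 16 zeros and a highest value of 64.1 CPM.

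Zeros were also found in the deeper libraries. In the 27 embryos of 48 to 72 h with at least 500000 gene counts, where a count of 0 allows at most 6 CPM, 5 of 35 models had counts in all. In 18 models an embryo at 0 stood beside an embryo at 20 CPM or more. Neither was counted over all models, so whether these zeros are particular to the 35 was not tested. Nv.T1.8475.1, named for this contrast after its values were seen, had 0 counts in 2 of these embryos and 20 CPM or more in 23, up to 426 CPM. Nv.T1.9596.2 ran from 16.1 to 324 CPM with no zero.

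Levels in embryos of equal label time were set side by side over 11 pairs between 39.3 and 46.7 h. Since the first-block embryos had chosen the models, this is a description. Pooled over the pairs, 12 of 35 models were higher in embryos 74 to 123, against 42.9% of all models whose first-block counts fell in the same range and 41.3% of all models with a count. Scaled to the spike-in RNA instead, 20 of 35 were higher, against 85.2% of all models in the same range of counts and 72.3% of all models with a count. The summed level was higher in the later block in 6 of 11 pairs, and embryo 112 (46.7 h) held 46.7 CPM against 390 CPM in its partner.

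The models were ordered by the ratio of their pooled levels, with fewer than 3 counts set to 3, and 4 stood at the ends. Nv.T1.50223.1, named after its values were seen, was at 2.43 CPM pooled in the first block and 0.121 CPM in the later block. It had 1 count there, and without that floor it would have been the lowest. Nv.T1.17298.1 was at 4.00 CPM pooled in the first block (0 to 12.2, median 3.37) and at 11.2 CPM in the later block (0 to 43.4, median 2.82), yet it was higher in only 4 of 11 pairs and lower in 6. Nv.T1.48840.1 was at 6.98 CPM (0 to 23.2, median 2.49) and at 18.8 CPM (0 to 30.6, median 10.3), higher in 6 pairs and lower in 3. Nv.T1.63658.1 was at 5.65 CPM (0 to 14.9, median 4.57) and at 0.485 CPM (0 to 1.84, median 0), lower in 8 pairs and higher in 1. Nv.T1.50468.1 was at 3.45 CPM (0 to 9.11, median 2.98) and at 0.364 CPM (0 to 1.42, median 0), on 3 counts in all. The ranges overlapped for each of the 4 models.

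Within embryos 74 to 123 a change with label time could be tested, since the rule did not read them. Label time falls steadily from embryo 74 to embryo 123, so age and embryo number cannot be told apart within this block. With edgeR's quasi-likelihood test (Benjamini-Hochberg adjustment over all 13556 models tested, called at adjusted p under 0.05) 27 models changed linearly with label time (0.199%), 18 of them higher (0.133%). Of the 35 members, 17 had enough counts to be tested and 1 was called, Nv.T1.63571.67, which was higher. An unadjusted p under 0.05 was found for 7 of the 17, against 8.36% of all models. A spline of label time called 3 of the 27 members it tested, against 0.376% of all models. The 17 passed the count filter through high levels in these same embryos. Neither their number nor their shares of calls and small p-values therefore say anything about the 35. The same holds for the comparisons of age groups below.

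Nv.T1.63571.67 rose with age in the later block up to 66 h and was lower in the last 6 h bin. Its median was 10.8 CPM at 54 to 60 h (0 to 17.0, n = 9) and 20.2 CPM at 60 to 66 h (0 to 46.3, n = 9). In the bin of 66 to 72 h the median was 8.99 CPM (0 to 23.1, n = 10). At 39 to 48 h it ran from 0 to 11.7 CPM with a median of 0.991 (n = 12 embryos), at 48 to 60 h from 0 to 17.0 CPM with a median of 7.09 (n = 18) and at 60 to 72 h from 0 to 46.3 CPM with a median of 13.7 (n = 19). The groups overlapped, and counts were present in 7, 13 and 17 embryos. The log2 slope was 1.60 ± 0.32 per 12 h (SE, edgeR adjusted p = 0.012). From 39 to 48 h to 60 to 72 h the log2 fold change was 3.06 ± 0.66 (edgeR adjusted p = 0.022). There 1 of the 17 members was called, against 0.332% of all models (0.243% higher), and 8 were at an unadjusted p under 0.05, against 8.34%. With spike-in scaling neither call held (edgeR adjusted p = 0.24 and 0.28), at a log2 slope of 1.40 and a log2 fold change of 2.71. In the first block the model was at 5.80 CPM (2.88 to 25.2, n = 9) at 42 to 48 h, above its median of 1.05 CPM (0 to 11.7, n = 8) in the later block at that age. None of the 17 members tested was called lower, though 3 had a negative log2 fold change from 39 to 48 h to 60 to 72 h. Members below the count filter were not tested, so a fall among them could not be called.

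The shorter steps gave no call among the members. From 39 to 48 h to 48 to 60 h edgeR called 0 of 17 members (0.0516% of all models, 0.0221% higher), with 9 at an unadjusted p under 0.05 (5.40% of all models). DESeq2 called 2 of the 31 members it tested, against 0.193% of all models. From 48 to 60 h to 60 to 72 h edgeR called 0 of 17 (0.0516% of all models, 0.0148% higher), with 2 at an unadjusted p under 0.05 (4.28% of all models). DESeq2 called 0 of the 11 members to which it gave an adjusted p, against 0.00975% of all models. Its unadjusted p, given for more models, was under 0.05 for 6 members and for 1325 models in all. The 2 models called by DESeq2, named after their values were seen, were Nv.T1.45019.1 and Nv.T1.63571.4005, both higher at 48 to 60 h, with log2 fold changes of 2.97 ± 0.75 and 1.62 ± 0.41 (SE, DESeq2 adjusted p = 0.041 and 0.044). In edgeR these were 2.77 ± 0.74 (adjusted p = 0.17) and 1.65 ± 0.49 (adjusted p = 0.26).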

How the data were processed

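The deposited values are raw counts, whole numbers that the authors did not normalize, for 40499 models, 92 spike-in RNAs (ERCC) and 5 classes of unassigned reads. Per the submitters' processing notes, the tools included HTSeq 0.5.4p3, Bowtie2 2.1.0 and CASAVA 1.8. Libraries were made with CEL-Seq and treated with DSN, a nuclease that lowers abundant molecules, per the labels' protocols. The genome build and annotation are not given in the sources used here. Reads shared by near-identical models can be split or lost, and DSN can compress high levels. Unaligned reads were a median of 37.1% and reads on no feature 10.0% of all counts per embryo, and both stayed out of library sizes.

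CPM were computed over the model rows. Embryos with fewer than 50000 model counts were left out. Tests used embryos 74 to 123 in edgeR 4.0.16 with TMM scaling and filterByExpr in R 4.3.3, with label time per 12 h as a linear term, or 3 windows of 12 h in 1 fit with a further threshold of 1 on the absolute log2 fold change. Standard errors are the log2 value divided by the square root of F. DESeq2 1.42.0, other scalings, filters and library minimums were alternatives. The script was tested on simulated counts. Clutches are not given, and a p-value here reflects only how far these embryos differ.

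The members and lists were chosen with earlier results of these data known. Named models are the 2 with the highest rule value, those on either side of the limit, the called ones and the 2 at each end of the comparison of equal-time embryos. Others are said to be chosen after their values were seen.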

Additional observations from a re-analysis of the deposited data

Results flagged for a closer look

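Of 46 groups of 4 to 10 embryos examined for a single far value, 9 held one. The limits used give about 1 in 20 by chance only for normally distributed values. CPM within a bin often held zeros beside a few high values, so 9 of 46 cannot be set against that rate. The 46 groups covered the summed level of the 35 models in each bin and the levels of Nv.T1.63571.3979, Nv.T1.63571.4053, Nv.T1.63571.67 and Nv.T1.9596.2 from 36 h on. Values within a bin share embryos, so these are not 9 separate events.

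In the summed level 5 embryos stood above the others of their bin. Embryo 50, labelled -20, held 74.6 CPM, with the next of the 0 to 6 h embryos at 31.8 CPM. Of this sum 5.89 CPM came from models outside the largest identifier stem. Embryo 17 (10 h) held 67.9 CPM against 35.1 CPM, and 57.1% of it was Nv.T1.56751.1. Embryo 25 (15.3 h) held 178 CPM against 47.7 CPM, and 51.2% of it was Nv.T1.13790.1. Embryo 43 (28 h) held 124 CPM against 63.7 CPM. Embryo 64 (41.3 h) held 690 CPM against 228 CPM. Embryos 17, 25 and 43 were shallow, with 206062, 240961 and 394965 gene counts, and the part of depth in their sums was not tested.

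Embryo 64 also stood apart in single models of the 36 to 42 h bin. It held 58.3 CPM of Nv.T1.63571.3979, 62.6 CPM of Nv.T1.63571.4053 and 178 CPM of Nv.T1.9596.2, with the next embryos at 4.76, 5.07 and 6.71 CPM. Embryo 94 held 324 CPM of Nv.T1.9596.2 at 54 to 60 h, with the next embryo at 150.1 CPM.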

How the results depend on the processing

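Which models the rule takes depends on single embryos and limits. Leaving out each of the 71 embryos in turn gave 30 to 44 models, of which 27 to 35 were among the 35, and 12 of the 35 were taken every time. An absence limit of 0 CPM gave 17 models and a presence limit of 10 CPM gave 5. TMM scaling gave 49 (34 shared) and size factors 33 (30 shared). Without embryos 3, 7, 28, 32, 54 and 58 it was 37 (31 shared), and without embryo 50 it was 33. Presence in embryos 74 to 123 ranged from 24 to 26 models with each embryo left out, from 24 to 30 over the other limits and scalings tried, and was 21 of 29 without the members of the largest identifier stem.

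The linear change with age called 0 members with spike-in scaling, 4 without a filter on low counts, 2 at a minimum of 500000 counts, 3 with a spline of 3 degrees of freedom and 3 with DESeq2, against 1. For 60 to 72 h against 39 to 48 h these were 0, 7, 2 and, with DESeq2, 6, against 1. For 48 to 60 h against 39 to 48 h, 4 were called without a filter and 2 with DESeq2, and for 60 to 72 h against 48 to 60 h 1 without a filter, against 0 each. More models enter without a filter (34021 in all), and otherwise the cause was not tested. Over all models the linear change gave 27 calls, against 4 (spike-in scaling), 15 (without embryos 112 and 123), 47 (size factors), 64 (spline), 134 (minimum of 500000), 265 (DESeq2) and 2628 (no filter). For 60 to 72 h against 39 to 48 h it gave 45, against 9 (spike-in scaling), 18 (without embryos 112 and 123), 72 (size factors), 192 (DESeq2) and 2386 (no filter). For 48 to 60 h against 39 to 48 h it gave 7, against 3 (minimum of 500000), 40 (DESeq2) and 1326 (no filter). For 60 to 72 h against 48 to 60 h it gave 7, against 0 (minimum of 500000, edgeR, with 1004 models at an unadjusted p under 0.05), 1 (DESeq2), 4 (without embryos 112 and 123), 16 (spike-in scaling) and 2532 (no filter). Spike-in scaling moved the median log2 change of all models to -0.21 per 12 h, and to -0.36, 0.16 and -0.52 in the 3 comparisons of windows. For Nv.T1.63571.67 without embryo 84, its highest, the slope was 1.50 (edgeR adjusted p = 0.030) and the log2 fold change 2.90 (edgeR adjusted p = 0.039). Leaving out embryo 50, embryos 112 and 123, the largest stem or each embryo in turn, and the filter and minimum for the shorter steps, were chosen after seeing the data. At equal label time 20 models were higher in embryos 74 to 123 with spike-in scaling, against 12, and the share over all models with a count moved from 41.3% to 72.3%. No paired analysis was run, and the labels give no replicate numbers that could enter a fit as a block. The 11 pairs of equal label time were described without a test, since the rule had used 1 embryo of each.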
